A study of Mus musculus with 2 samples.

Results

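Immune checkpoint and death ligand genes were followed in lung endothelial cells (ECs) of mice that had received melanoma cells or vehicle 6 h earlier. The set held 7 of the 31053 genes in the count matrices, taken by gene symbol: Cd274 (PD-L1), Pdcd1lg2 (PD-L2), Vsir (VISTA), Lgals9 (galectin-9), Cd47, Tnfsf10 (TRAIL) and Fas. The symbols alone set the membership, and they were listed with earlier results of these data known. Fas is a receptor and not a ligand, and it is kept here as the counterpart of the death ligands.

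ECs at the inner wall of a vessel meet every circulating tumor cell and leukocyte, and they carry surface proteins that restrain or trigger those cells. PD-L1 and PD-L2 bind the PD-1 receptor of T cells and dampen their activation, VISTA restrains T cells and myeloid cells, galectin-9 binds several glycoproteins including TIM-3, and CD47 tells phagocytes that carry SIRP alpha not to engulf a cell. TRAIL and Fas ligand instead engage death receptors that recruit FADD and caspase-8. Interferons and NF-kappa B signaling are known inducers of several of these genes, including Cd274.

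The libraries came from wild-type C57BL/6 male adult mice. In the control library the mice had received PBS, and in the metastatic library each mouse had received 200000 B16-F10 cells, a syngeneic mouse melanoma line, through the tail vein. Lungs were taken 6 h later, cells were sorted by staining for Pecam1, and the cells of 2 mice were pooled into each library, so that each group had 1 library. With 1 library per group no test between the groups was possible. All intervals below are 95% intervals of counting error only, and they hold neither mouse-to-mouse nor library-to-library spread.

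The control and metastatic libraries held 67929614 and 64733724 unique molecular identifiers (UMIs, tags that count captured RNA molecules), and 7134 and 6466 barcodes passed the filter, with medians of 6272.5 and 6526.5 UMIs. ECs were assigned to classes by marker genes: 5020 control and 4519 metastatic general capillary cells (gCap), 1364 and 1086 aerocytes (aCap, the large thin capillary cells of the gas exchange surface), 247 and 304 vein cells, and 63 and 59 artery cells. Markers that the rule did not use were highest in the class they mark in both libraries, except for Sox17, an arterial transcription factor that was highest in gCap. Of the passing barcodes 16 sequences were found in both libraries. Cells of an EC class that also carried at least 2 markers of another cell type numbered 1289 of 6694 in the control and 1235 of 5968 in the metastatic library. Where the sign of a member's ratio turned without them, both values are given beside the result.

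The members lie at 6 places in the GRCm38 genome (the mm10 assembly). Cd274 (chr19:29367455-29388095, plus strand) and Pdcd1lg2 (chr19:29410919-29471161, plus strand) are neighbors with 22823 bases between them, and Fas lies further along the same chromosome (chr19:34290666-34327772, plus strand). Tnfsf10 spans chr3:27317028-27342427 (plus), Cd47 chr16:49800533-49915010 (plus), Lgals9 chr11:78962974-78984946 (minus) and Vsir chr10:60346851-60372684 (plus). All 7 are protein coding. Vsir overlaps Cdh23 on the other strand, and Cdh23 had 14 control and 13 metastatic UMIs in gCap against 950 and 1289 for Vsir.

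Because interferon and NF-kappa B act through short DNA motifs, the 250 bases before each RefSeq transcription start (GRCm38.p6) were searched on both strands for the core of the interferon-stimulated response element (ISRE, TTTCNNTTTC), the gamma-activated sequence bound by STAT dimers (GAS, TTCNNNGAA) and the kappa B motif. Over all 32851 promoters of this length, 2.98% held the ISRE core, 7.02% the GAS motif and 3.90% the kappa B motif. The promoters of the 4 members on which the results below turn are shown 5′ to 3′, with motif matches in capitals.
Lgals9 promoter (chr11:78984925-78985174, minus strand): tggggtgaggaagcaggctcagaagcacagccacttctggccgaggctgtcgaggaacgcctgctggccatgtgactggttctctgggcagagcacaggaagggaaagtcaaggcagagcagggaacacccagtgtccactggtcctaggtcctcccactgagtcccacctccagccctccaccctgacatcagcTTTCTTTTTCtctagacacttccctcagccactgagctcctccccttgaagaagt
Fas promoter (chr19:34290409-34290658, plus strand): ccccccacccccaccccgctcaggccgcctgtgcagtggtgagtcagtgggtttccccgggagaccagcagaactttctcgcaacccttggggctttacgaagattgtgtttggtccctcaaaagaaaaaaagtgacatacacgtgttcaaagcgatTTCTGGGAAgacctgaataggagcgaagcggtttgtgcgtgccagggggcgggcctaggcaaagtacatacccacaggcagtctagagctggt
Cd274 promoter (chr19:29367188-29367437, plus strand): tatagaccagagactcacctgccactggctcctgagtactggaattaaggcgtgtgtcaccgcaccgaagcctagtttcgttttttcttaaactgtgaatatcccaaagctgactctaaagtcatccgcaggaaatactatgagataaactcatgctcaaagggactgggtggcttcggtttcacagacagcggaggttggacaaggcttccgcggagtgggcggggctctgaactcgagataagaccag
Tnfsf10 promoter (chr3:27316827-27317076, plus strand): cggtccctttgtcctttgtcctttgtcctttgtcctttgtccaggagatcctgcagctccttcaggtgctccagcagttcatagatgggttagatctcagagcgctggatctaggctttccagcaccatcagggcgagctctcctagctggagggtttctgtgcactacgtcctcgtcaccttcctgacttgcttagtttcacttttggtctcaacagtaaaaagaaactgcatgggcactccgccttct
Lgals9 held 1 ISRE core, which began 55 bases before its start, and Fas held 1 GAS motif, which began 93 bases before its start. Pdcd1lg2 held 1 kappa B match 244 bases before its start. Cd274, Tnfsf10, Vsir and Cd47 held none of these letters in the window, which says nothing of sites elsewhere.

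The pattern across the set was uneven. In gCap, the class with most cells, Tnfsf10, Cd274 and Vsir were higher in the metastatic library, Fas and Cd47 were lower, Lgals9 was level, and Pdcd1lg2 was barely detected. Among the 6 members with at least 100 UMIs, 3 were past a log2 ratio of 0.5 upward and 1 was past it downward. Over all 11220 gCap genes with at least 100 UMIs, 4.88% were past 0.5 upward and 2.59% downward, and the median log2 ratio was 0.02.

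**Figure D1:**
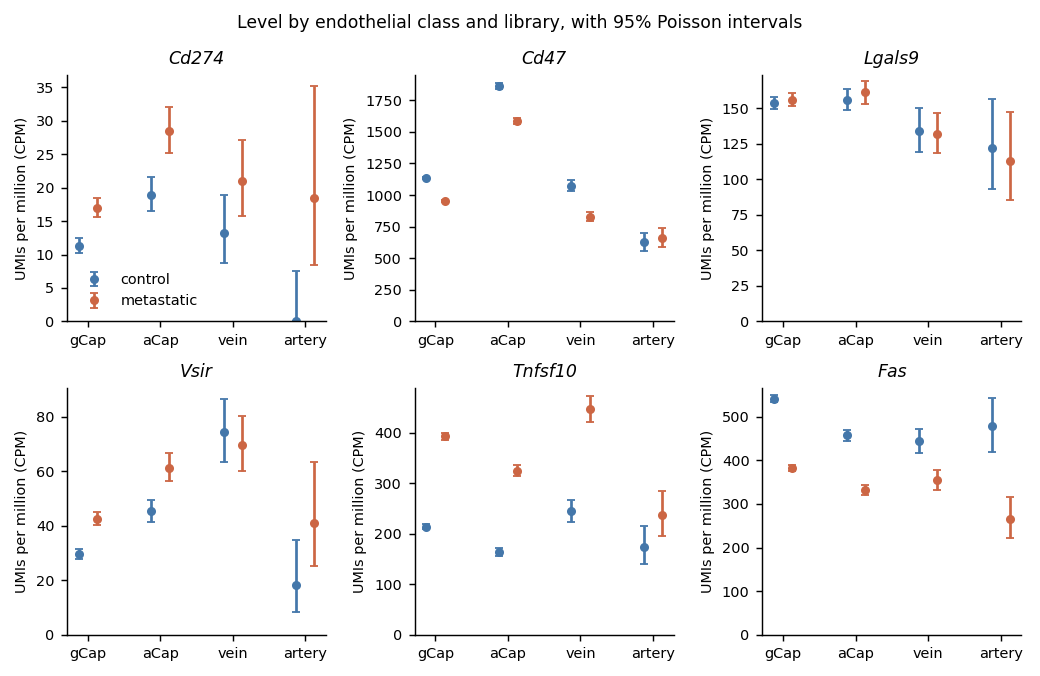
Level of 6 members in UMIs scaled to the class total (CPM, y axis, from 0) in the control library (blue) and the metastatic library (orange) by EC class (x axis), with 95% Poisson intervals of counting error. Tnfsf10 is higher and Fas lower in the metastatic library in all 4 classes, and Cd47 peaks in aCap in both libraries.

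Tnfsf10, which encodes the death ligand TRAIL, had the highest gCap ratio of the set. Its level in gCap was 213.8 CPM (UMIs scaled to 1e+06 UMIs of the class; interval 208.8 to 218.9) in control cells and 393 CPM (386 to 400.3) in metastatic cells, which makes a log2 ratio of 0.88 (0.84 to 0.92). Of all gCap genes compared, 98.8% had a lower ratio. The aCap values were 164 and 325 CPM, with a log2 ratio of 0.99 (0.91 to 1.07). In vein cells the level went from 244 to 446 CPM, a log2 ratio of 0.87 (0.72 to 1.02). Artery cells had 86 and 115 UMIs, and the log2 ratio of 0.44 (0.02 to 0.86) lay nearer to 0. The order of the classes was the same in both libraries for vein, gCap and aCap, with vein cells above gCap by a log2 ratio of 0.19 and 0.18 and aCap below gCap by -0.38 in the control and -0.27 in the metastatic library.

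In gCap more cells carried the transcript in the metastatic library, and more cells carried several copies of it. After each cell was thinned to 2000 UMIs, so that depth could not set the shares, 33.3% of control gCap cells (32.0% to 34.6%) and 48.6% of metastatic gCap cells (47.2% to 50.1%) had a Tnfsf10 UMI. Without thinning the shares were 63.7% and 76.2%. The gCap cells with 3 or more UMIs after thinning went from 1.54% to 6.84%. The thinned share with a UMI was also higher in aCap (26.6% and 40.4%) and vein cells (37.8% and 49.8%). In artery cells it was 31.7% in the control and 28.8% in the metastatic library, on 63 and 59 cells. Leukocyte barcodes of the same libraries were set beside the ECs. After thinning, 0 of 28 control and 0 of 22 metastatic B cells had a Tnfsf10 UMI. That allows shares of up to 10.7% and 13.6% by the floor of 3 counts, and 12.3% and 15.4% by the exact interval. Among myeloid cells 1 of 37 and 1 of 41 had one. The median depth of B cells before thinning was 4136 and 4226 UMIs, against 5950.5 and 6275 in gCap.

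Fas, the death receptor for Fas ligand, moved the other way. Its gCap level was 541 CPM (533 to 550) in control and 382 CPM (375 to 389) in metastatic cells, and the log2 ratio was -0.50 (-0.54 to -0.47), at or below which lay 2.50% of gCap genes. This ratio sits close to the limit of 0.5. It was -0.53 with TMM or median ratio scaling and -0.49, inside the limit, with the mean of CPM over cells. In aCap the level was 458 and 331 CPM (log2 ratio -0.47, -0.53 to -0.40), in vein cells 443 and 354 CPM (-0.32, -0.46 to -0.19) and in artery cells 479 and 265 CPM (-0.85, -1.17 to -0.54). In all 4 classes the intervals of the ratio lay below 0. The share of gCap cells with a Fas UMI after thinning was 63% (61.6% to 64.3%) and 49.5% (48.0% to 50.9%), and 89.7% and 80.2% without thinning. Among leukocytes, 0 of 28 and 2 of 22 B cells and 6 of 37 (16.2%) and 3 of 41 (7.32%) myeloid cells had a Fas UMI.

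Counted in the same cells, those with only Fas were fewer and those with only Tnfsf10 more numerous in the metastatic library. In gCap, 41.4% of control cells carried a Fas UMI and none of Tnfsf10, against 26.8% of metastatic cells. Cells with Tnfsf10 and not Fas made up 11.7% and 26.0%. The share with both was 21.5% (20.4% to 22.7%) and 22.7% (21.5% to 23.9%), and the share with neither was 25.3% and 24.6%. The aCap cells gave the same picture, with Fas only in 41.9% and 28.4% and Tnfsf10 only in 10.7% and 23.3%. Vein cells had Tnfsf10 only in 14.6% and 29.0%, whereas artery cells had 15.9% and 15.3%, on 63 and 59 cells. All these parts depend on the separate shares of cells with Fas and with Tnfsf10. Whether the genes went together within cells was not tested.

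**Figure D2:**
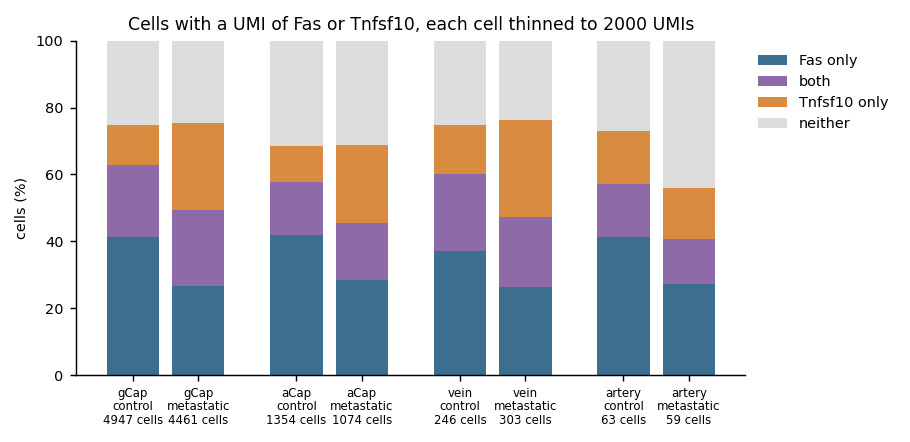
Share of cells (y axis, percent) with a UMI of Fas only, of both genes, of Tnfsf10 only or of neither, after each cell was thinned to 2000 UMIs, by EC class and library (x axis, with the number of cells). In gCap the Fas-only part goes from 41.4% to 26.8% and the Tnfsf10-only part from 11.7% to 26.0%, while the part with both stays near 22%.

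Cd274, encoding PD-L1, was scarce. It had 363 control and 514 metastatic UMIs in gCap, or 11.3 CPM (10.2 to 12.5) and 17.0 CPM (15.5 to 18.5), a log2 ratio of 0.59 (0.39 to 0.78). In aCap the level was higher in both libraries, at 18.9 and 28.4 CPM, with the same log2 ratio of 0.59 (0.33 to 0.86). Vein cells had 29 and 56 UMIs, with an interval of the ratio that reached 0. Artery cells had 0 and 9 UMIs. Against the level that 3 UMIs would give in the control artery cells, taken as the floor of a count of 0, the metastatic level was at least 3.04-fold higher, while the counting interval of the ratio began at 2.00-fold. The artery cells of the metastatic library also held more RNA of other cells, with 720 against 1 UMIs of 4 lymphatic markers, 148 against 14.2 CPM of 4 platelet markers and 315 against 28.4 CPM of 5 myeloid markers, none of the lymphatic or platelet markers being at 0 there. Without cells carrying markers of other types the artery counts were 0 UMIs in 51 cells and 5 UMIs in 45 cells, and the interval of the log2 ratio began at 0.024. After thinning, 2.04% of control and 2.94% of metastatic gCap cells had a Cd274 UMI. Myeloid cells stood above gCap, at 36.3 and 45.8 CPM on 10 and 14 UMIs. B cells had 1 and 4 UMIs of Cd274, and T or NK cells 1 and 1.

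Low levels need a comparison with the RNA that floats free in the droplets. In the pool of barcodes with 11 to 50 UMIs, Cd274 stood at 36.6 CPM in the control (24 UMIs, 23.4 to 54.4). It stood at 30.2 CPM in the metastatic library (22 UMIs, 18.9 to 45.7). Both point values were above its level in all 4 EC classes of the same library. Free RNA, estimated from lung epithelial and neutrophil genes, amounted to 25.8% and 20.3% of gCap UMIs in barcodes with fewer than 10 UMIs of these genes. Subtracting it left Cd274 with a log2 ratio of 2.44 in gCap and 0.93 in aCap, so the point values kept their direction while the size could not be fixed. The counting error of the few free Cd274 UMIs was not carried into these ratios. For Vsir the free pool held 32.0 and 23.3 CPM, for Tnfsf10 76.2 and 81.0 CPM and for Fas 109.7 and 111 CPM. The control value for Vsir was above its control gCap level of 29.6 CPM.

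Pdcd1lg2, encoding PD-L2, had 0 control and 2 metastatic UMIs in gCap. Its level was therefore below 0.115 CPM in the control, the upper end of the Poisson interval, and no ratio is given. Among the other ECs it had 1 UMI in aCap and 2 in vein cells, all in the metastatic library. The far fewer leukocytes held more, with 2 and 4 UMIs in myeloid cells and 1 and 4 in B cells. A difference between the libraries was not detectable at this depth.

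Vsir, encoding the checkpoint protein VISTA, was 29.6 CPM (27.7 to 31.5) in control and 42.6 CPM (40.3 to 44.9) in metastatic gCap, a log2 ratio of 0.52 (0.40 to 0.65). This ratio fell just short of the limit of 0.5 with TMM scaling (0.50 when rounded). In aCap it was 45.3 and 61.3 CPM, with a ratio of 0.44 (0.26 to 0.61). Vein cells had the highest control level, 74.3 CPM, and did not share the difference: the metastatic level was 69.5 CPM, a log2 ratio of -0.10 (-0.41 to 0.21). The log2 ratio of vein over gCap was 1.33 (1.08 to 1.57) in the control and 0.71 (0.48 to 0.93) in the metastatic library. Artery cells held 9 and 20 UMIs. The metastatic vein cells carried more RNA of epithelial genes (summed level of 5 markers 3658 CPM against 130 CPM) and of myeloid genes (657 against 34.0 CPM). Without the cells that carried such markers, the Vsir ratio in vein cells was -0.19. Among leukocytes, myeloid cells stood above gCap, at 90.7 and 81.7 CPM on 25 UMIs in each library. T or NK cells had 6 and 13 UMIs of Vsir, and B cells 3 and 0.

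Lgals9, encoding galectin-9, was nearly level between the libraries in gCap and aCap. Its gCap level was 153 CPM (149 to 158) and 156 CPM (151 to 160), a log2 ratio of 0.02 (-0.03 to 0.08). In aCap, vein and artery cells the log2 ratios were 0.05, -0.02 and -0.11, each with an interval that held 0. Without cells carrying markers of other types the vein and artery ratios were 0.09 (-0.16 to 0.34) and 0.18 (-0.46 to 0.83), so their signs turned while the intervals still held 0. The control levels of aCap and gCap differed by a log2 ratio of 0.02 (-0.06 to 0.10), and vein cells were lower than gCap by -0.20 and -0.24.

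Cd47, the signal that keeps phagocytes away, was slightly lower in the metastatic library. Its level in gCap was 1134 CPM (1123 to 1146) and 952 CPM (941 to 963), a log2 ratio of -0.25 (-0.28 to -0.23). The aCap ratio was -0.23 (-0.26 to -0.20) and the vein ratio -0.37 (-0.46 to -0.29). In artery cells the levels were 627 and 660 CPM, with a log2 ratio of 0.075 (-0.16 to 0.30). The metastatic artery cells held 720 UMIs of 4 lymphatic markers against 1 in the control. Without cells carrying markers of other types the artery ratio was -0.13 (-0.40 to 0.13), and the difference from gCap was not tested. Most cells carried Cd47. After thinning, 86.1% and 82.1% of gCap, 94.9% and 91.6% of aCap, 89.8% and 78.2% of vein and 73% and 67.8% of artery cells had a UMI.

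**Figure D3:**
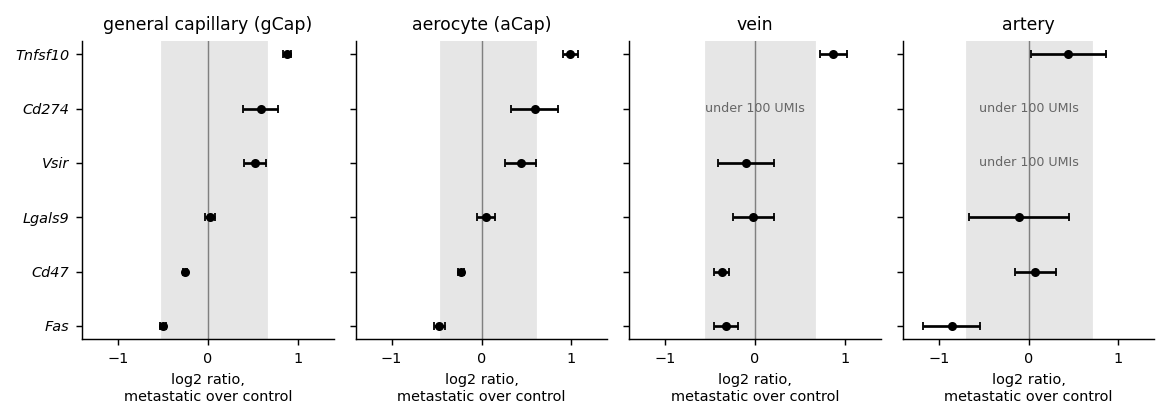
Log2 ratio of CPM, metastatic over control (x axis), for 6 members (y axis) in the 4 EC classes, with 95% counting intervals; the grey band holds the central 95% of all genes with at least 100 UMIs in the class. Tnfsf10 lies above the band in gCap, aCap and vein cells, and Fas lies below it in aCap and artery cells.

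In the other classes fewer members were past 0.5. In aCap, Tnfsf10 and Cd274 were past it upward and 0 downward, where 3.82% and 1.89% of 9504 genes were. In vein cells Tnfsf10 was past it upward and 0 members downward, against 5% and 3.43% of 6260 genes, and in artery cells 0 members upward and Fas downward, against 7.22% and 6.4% of 1827 genes.

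For Cd47, aCap and gCap differed more than the libraries did. Vein cells lay closer to gCap, at log2 ratios of -0.08 in the control and -0.20 in the metastatic library. Cd47 in aCap exceeded gCap by a log2 ratio of 0.71 (0.69 to 0.74) in the control and 0.74 (0.71 to 0.77) in the metastatic library. Cd274 gave 0.74 and 0.75, and Vsir 0.61 and 0.53. Thus 3 members were past 0.5 upward and 0 downward in each library, where 11.2% of genes were past it upward and 14.7% downward in the control, and 11.2% and 13.7% in the metastatic library. The class difference of these 3 genes was therefore seen separately in each library. For Cd274 the level in the free RNA was above both classes in each library, and for Vsir it was above control gCap. How free RNA bears on these class differences was not tested. Artery cells had the lowest Cd47, at a log2 ratio of -0.86 below control gCap.

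The members were then read in gCap cells by their state. Cells with at least 3 of 8 interferon-stimulated genes after thinning (Isg15, Ifit1, Ifit3, Irf7, Rsad2, Oasl2, Rtp4 and Usp18) were called interferon-positive, 408 of 4947 control cells (8.25%) and 439 of 4461 metastatic cells (9.84%). Lgals9 was higher in these cells in both libraries, at 267 against 143 CPM in the control (log2 ratio 0.90, 0.69 to 1.11) and 254 against 146 CPM in the metastatic library (0.80, 0.59 to 1.01). Its level thus varied with the interferon state of a cell and hardly with the library.

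Cd274 was higher in interferon-positive cells of the metastatic library. In that library, interferon-positive cells had 44.4 CPM (39 UMIs) and other cells 12.3 CPM (99 UMIs), a log2 ratio of 1.85 (1.28 to 2.40). In the control the values were 18.4 and 10.2 CPM on 15 and 93 UMIs, with a ratio of 0.84 and an interval that held 0 (-0.05 to 1.64). When 2 interferon genes sufficed for the positive state, the ratio was 1.00 (0.35 to 1.62) in the control and 1.27 (0.74 to 1.78) in the metastatic library, so that both intervals lay above 0 and overlapped widely. Between the libraries, Cd274 differed by a log2 ratio of 1.27 (0.38 to 2.24) in interferon-positive cells and by 0.26 (-0.16 to 0.69) in the other cells. The intervals of these ratios overlap, and with 2 genes sufficing the ratios were 0.62 (-0.04 to 1.31) and 0.36 (-0.10 to 0.82), both with intervals that held 0. The difference between the states was not tested.

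Vsir differed by interferon state in the control and not detectably in the metastatic library. Control interferon-positive cells had 13.5 CPM (11 UMIs) and the others 30.4 CPM (276 UMIs), a log2 ratio of -1.17 (-2.19 to -0.31), and metastatic cells had 44.4 and 39.0 CPM (0.19, -0.33 to 0.67). Read between the libraries, the Vsir ratio was 1.72 (0.73 to 2.83) in interferon-positive cells and 0.36 (0.12 to 0.60) in the others. With 2 genes sufficing, the control ratio by state was -0.40 (-0.93 to 0.10) and the ratio between the libraries in positive cells 0.83 (0.25 to 1.44), which overlaps that of the other cells.

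Tnfsf10 was a little higher in interferon-positive cells, with log2 ratios of 0.38 and 0.44. Its difference between the libraries was 0.86 (0.78 to 0.94) in the other cells and 0.91 (0.68 to 1.15) in the positive ones. The other cells held fewer than 3 of the 8 interferon genes and could still hold some. In gCap those 8 genes had a median log2 ratio of 0.27 between the libraries, beside 0.02 for all genes. Of them 1 was past 0.5 upward and 0 downward, where 4.88% and 2.59% of all gCap genes were. A link of Tnfsf10 to interferon was not tested. Fas was lower in the metastatic library in both kinds of cell, by -0.78 (-0.99 to -0.58) in interferon-positive cells and -0.47 (-0.53 to -0.40) in the others. Cd47 gave -0.34 and -0.21.

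Reactive capillary (rCap) genes, a set the study describes after tumor cell injection, were used in the same way (Inhbb, Bcl3, Adamts9, Tmem252, Osmr, Scarb1 and Pim3). Cells with at least 3 of these 7 numbered 311 in the control (6.29%) and 459 in the metastatic library (10.3%). This list was chosen by the study on samples that include these libraries. Vsir was higher in rCap-positive cells, at 43.4 against 28.0 CPM in the control (log2 ratio 0.63, 0.001 to 1.20) and 73.0 against 35.7 CPM in the metastatic library (1.03, 0.62 to 1.42). When 2 rCap genes sufficed, the ratios were 0.33 (-0.06 to 0.70) and 0.61 (0.29 to 0.93), so the control difference rests on the threshold. Tnfsf10 was not, with ratios of -0.18 (-0.46 to 0.09) and -0.07 (-0.24 to 0.09). In cells without the rCap state Tnfsf10 still differed between the libraries by 0.87 and Fas by -0.51.

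**Figure D4:**
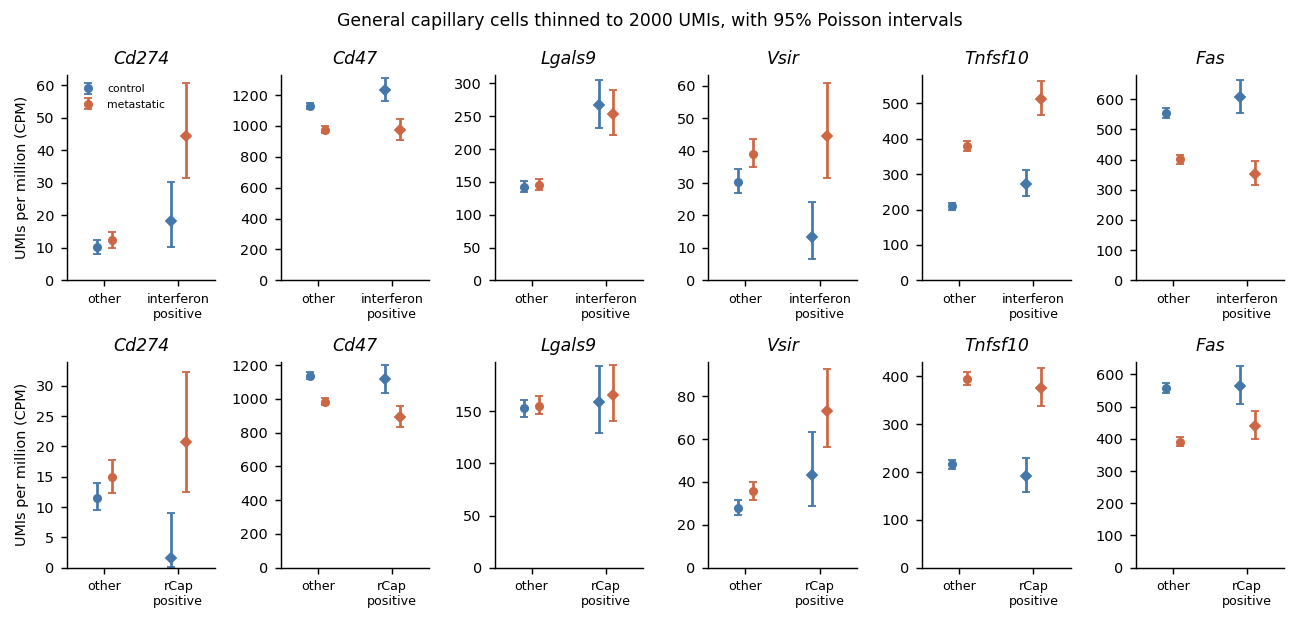
CPM (y axis, from 0) of 6 members in gCap cells with and without at least 3 interferon genes (top row) or rCap genes (bottom row), control in blue and metastatic in orange, with 95% Poisson intervals. Lgals9 and metastatic Cd274 are higher in interferon-positive cells, Vsir in rCap-positive cells, and Tnfsf10 differs between the libraries in every state.

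Genes that act with the members were read from lists. Of 12 receptors and binding partners, 7 had at least 100 UMIs in gCap, and 3 of these were past 0.5 upward and 0 downward, where 4.88% of all gCap genes were past it upward. All 3 were TRAIL receptors. The death receptor Tnfrsf10b had 109 and 216 UMIs (log2 ratio 1.07, 0.73 to 1.42). The decoy receptors had wider intervals: Tnfrsf23 (34 and 66 UMIs, 1.04, 0.42 to 1.68) and Tnfrsf22 (76 and 103 UMIs, 0.52, 0.08 to 0.97). The value of Tnfrsf22 would fall short of the limit with TMM scaling, which lowers gCap ratios by 0.024. In aCap, Tnfrsf10b had 105 and 98 UMIs, a log2 ratio of 0.17 (-0.24 to 0.58), and Tnfrsf22 (23 and 18 UMIs) and Tnfrsf23 (5 and 6 UMIs) had too few to be compared. Thbs1, encoding the CD47 ligand thrombospondin-1, had a ratio of 0.35 in gCap, and Rgmb, encoding a PD-L2 partner, -0.21. In aCap, 5 of the list could be compared, and 2 were past 0.5 upward and 0 downward. These were Thbs1 (96 and 127 UMIs, log2 ratio 0.67, 0.28 to 1.07) and Tnfrsf11b (161 and 198 UMIs, 0.57, 0.26 to 0.88). Over all aCap genes, 3.82% were past it upward and 1.89% downward. Pdcd1, encoding PD-1, had 0 UMIs in gCap of both libraries and Fasl 9 and 16.

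Of the 16 genes reported here that act in death receptor signaling, 16 could be compared, and 0 were past 0.5 in either direction. The initiator Casp8 gave a log2 ratio of 0.27 (0.18 to 0.35), its inhibitor Cflar 0.07, and the adaptor Fadd 0.02. The median of the 16 was 0.11, beside 0.02 for all genes.

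Other checkpoint and TNF family genes numbered 23, of which 13 could be compared, 2 were past 0.5 upward and 1 downward, beside 4.88% and 2.59% of all gCap genes. Icosl, the ICOS ligand, had 33 and 70 UMIs (log2 ratio 1.17, 0.55 to 1.81). Lgals1 had 210 and 282 UMIs (0.51, 0.25 to 0.77, under the limit with TMM scaling). The complement inhibitor Cd59a had 76 and 44 UMIs (-0.70, -1.27 to -0.15). The abundant inhibitory ligand Cd200 was lower, at 880 and 651 CPM, a log2 ratio of -0.44 (-0.46 to -0.41). The Nectin family ligand Pvr gave 0.37.

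Of the 19 known regulators of PD-L1 reported here, 19 could be compared, 2 were past 0.5 upward and 0 downward, with a median of 0.18. Over all gCap genes 4.88% were past it upward and the median was 0.02. Both were noncanonical NF-kappa B subunits: Relb and Nfkb2 gave 0.87 (0.73 to 1.01) and 1.08 (0.88 to 1.28). Nfkb1 and Rela gave 0.11 and 0.31. Relb was also past 0.5 in aCap (0.84) and in vein cells (0.94), and Nfkb2 in aCap (0.56). Cmtm6, which keeps PD-L1 at the cell surface, gave 0.11.

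**Figure D5:**
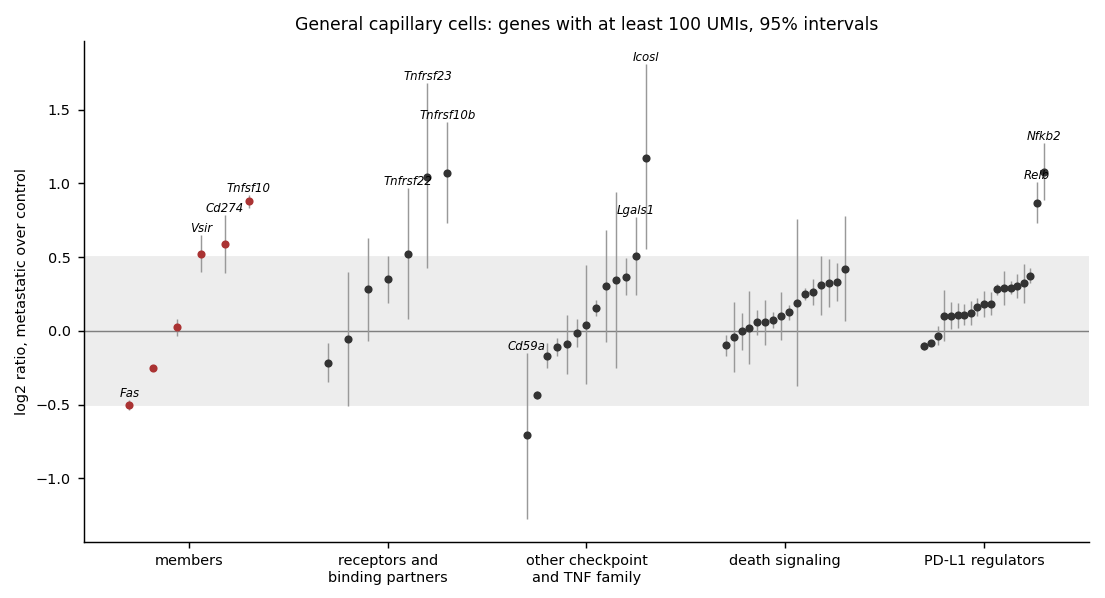
Log2 ratio of CPM, metastatic over control, in gCap (y axis) for the members (red) and the genes of 4 lists (black) with at least 100 UMIs, with 95% counting intervals and names for genes past 0.5; the grey band spans -0.5 to 0.5. The 3 TRAIL receptors, Icosl, Relb and Nfkb2 lie above the band, and Cd59a and Fas lie below it.

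Marker lists of other cells also differed between the libraries in gCap: 4 platelet markers summed to 175 and 271 CPM, 5 epithelial markers to 1699 and 1003 CPM, and 5 myeloid markers summed to 345 and 239 CPM. None of these markers was at 0. Without cells carrying markers of other types, the gCap ratios were 0.90 for Tnfsf10, 0.71 for Cd274, 0.60 for Vsir, 0.06 for Lgals9, -0.26 for Cd47 and -0.51 for Fas.

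Across the 8 sums of 4 classes in 2 libraries, the gene whose log2(CPM + 1) was most like that of Tnfsf10 was Nmi, an interferon-inducible STAT interactor, with a Pearson correlation of 0.995 among 9363 genes, followed by Bcl3 and Ralgds. For Fas it was Per1, a clock gene (0.977), followed by Tfb2m and Zfp707. For Cd47 the gene was Krt80 (0.993) with Foxf1 and Fermt2 next, for Cd274 As3mt (0.993) with Hikeshi and Nbdy, for Lgals9 Ctnnd1 (0.988) with Arid1a and Ptcd2, and for Vsir Ap5s1 (0.959) with Cmc2 and Mical3. These are descriptions over 8 points that share 2 libraries, and the artery sums are shallow. Between members, Cd47 and Lgals9 gave 0.84, Cd274 and Vsir 0.80, and Tnfsf10 and Fas -0.49.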

How the data were processed

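Single-cell RNA-seq libraries of Pecam1-sorted mouse lung cells, 1 per group and 2 pooled mice in each, were used. Per the labels and file headers, the authors deposited raw UMI counts for all 6794880 barcodes, made with Cell Ranger (software version 3.1.0 in the header) on mm10. Barcodes with 1000 to 5000 genes and under 20% mitochondrial UMIs were kept. An EC class required at least 2 of its markers: Ednrb, Fibin and Tbx2 for aCap, Slc6a2, Car8 and Bst1 for vein, Gja5, Bmx and Fbln5 for artery. Cells in none of these with 2 of Gpihbp1, Aplnr, Kit and Lpl were gCap. Barcodes in several classes (46 and 32) or in no class (308 and 377) were set aside. Barcodes of other cell types carried 2 markers of that type and under 2 of Pecam1, Cdh5, Cldn5 and Egfl7. No doublet caller was run.

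UMIs were summed by class and library and divided by the class total (CPM). Intervals at 95% were exact: Poisson for levels, conditional binomial for ratios and Clopper-Pearson for shares. Genes counted as past a log2 ratio of 0.5 had at least 100 UMIs over both libraries. No p-value was computed. For shares, cells were thinned to 2000 UMIs, which left out 73 control and 58 metastatic gCap cells. Scripts were checked on simulated data. Python 3.11.15, numpy 2.4.6, scipy 1.17.1 and pandas 2.3.3 were used, and TMM factors came from edgeR 4.0.16. Promoters were RefSeq sequences and coordinates those of GENCODE on GRCm38.

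The members and lists were chosen with earlier results of these data known. Named genes were all members, genes of the lists with at least 100 UMIs in the class, and for each member with at least 200 UMIs the 3 genes most correlated with it, among genes with at least 500 UMIs. Genes named outside this rule (Pdcd1, Fasl) were chosen after their values were seen. PCR duplicates were collapsed by UMI, and intervals cover counting error only. Some genes of the lists are not reported here and were left out of the list counts and medians.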

Additional observations from a re-analysis of the deposited data

Results flagged for a closer look

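A pair of results had opposite signs in 2 classes. The log2 ratio of Cd47 was 0.075 in artery cells and -0.25 in gCap, with intervals that do not overlap. The log2 ratio of Vsir was -0.10 in vein cells and 0.52 in gCap, again with intervals that do not overlap. Neither difference was tested, since each class came from the same 2 libraries. The Cd47 value in artery cells rests on 309 and 321 UMIs. Without cells carrying markers of other cell types it turned to -0.13 (-0.40 to 0.13). That interval overlaps the gCap interval of -0.29 to -0.23 in the same setting.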

How the results depend on the processing

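No paired analysis was possible because each group had 1 library, and for the same reason no replicate could be left out. Over the 11 settings, the gCap log2 ratio ranged from 0.84 to 0.90 for Tnfsf10, 0.55 to 2.44 for Cd274, 0.50 to 0.74 for Vsir, -0.03 to 0.06 for Lgals9, -0.36 to -0.24 for Cd47 and -0.60 to -0.49 for Fas. With gCap cells holding no marker of another class, Vsir gave 0.66 and Fas -0.55. TMM scaling gave Cd47 -0.28, and moved all gCap ratios by 0.02. With free RNA subtracted, a setting chosen after seeing the data, Cd274 gave 2.44, Cd47 -0.36, Vsir 0.74 and Fas -0.60. The limit of 0.5 was missed by Fas (-0.49) with the mean of CPM over cells, and narrowly by Vsir (0.50 when rounded) with TMM scaling. The cause of these shifts was not tested. The subtraction as planned was not run, since the share over all gCap barcodes came to 290.7% and 178%, with 23 and 22 barcodes holding 10 or more UMIs of the genes.

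The share of gCap genes past the limit upward and downward was 8.13% and 5.41% with at least 20 UMIs per gene, 12.5% and 10.8% with 1 UMI in each library, and 0.873% and 0.339% at a log2 ratio of 1. With at least 20 UMIs, 5 receptors and partners were past it upward and 1 downward, and 4 other checkpoint genes upward. With at least 2 interferon genes required, the Cd274 ratio by state was 1.00 in the control and 1.27 in the metastatic library. The difference in the share of gCap cells with Tnfsf10 was 11.8 points when thinned to 1000 UMIs. Depth limits Cd274, Pdcd1lg2 and every artery value.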
